A study of Mus musculus with 12 samples.

Results

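The transcripts described here come from 35 genes that mark macrophages and other myeloid cells, followed in inguinal white adipose tissue (iWAT), the subcutaneous fat pad of the mouse in which beige adipocytes appear in the cold. The genes were taken by symbol from the table of read counts, and all 35 were found among its 23420 genes and among the 15306 genes with enough reads to be tested. They were sorted by role into 9 pan-macrophage genes, 7 markers of resident macrophages, 5 of lipid-associated macrophages, 5 of monocyte-like cells, 3 genes of complement C1q, 4 Fc receptors and adaptors, and 2 scavenger receptors.

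Macrophages are among the most abundant immune cells of lean adipose tissue. Resident macrophages carry the mannose receptor Mrc1 and other lectins and scavenger receptors and clear debris and proteins from the space between adipocytes. Lipid-associated macrophages take up lipid from dying or lipolytic adipocytes through a programme that depends on the receptor Trem2, and monocytes enter the tissue from blood through the chemokine receptor Ccr2. The survival of these cells depends on signalling through Csf1r, the receptor of the growth factor M-CSF, and their gene programme on the transcription factor PU.1.

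RNA sequencing was done on iWAT of 10-week-old male C57BL/6 mice in 4 groups of 3 libraries. HIF2a loxP/loxP mice without a Cre served as WT, and the same alleles joined to Adipoq-Cre gave HIF2α AKO mice; this Cre is active in adipocytes, so that macrophages and other non-adipocyte cells of the pad keep an intact gene by design. Both genotypes were kept either at thermoneutrality (TN, 30 °C) for 1 week or in the cold (4 to 6 °C) for 3 days, so the groups differ in the length of exposure as well as in temperature. No label says which libraries came from separate mice, so the p-values below measure the spread between these libraries.

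Epas1, the gene of HIF2α, was read at 373, 278 and 430.0 CPM in TN WT and at 289, 394 and 360.1 CPM in TN libraries labelled HIF2α AKO, where CPM is the count scaled to a common library total after TMM correction of the library sizes. In the cold it stood at 576, 562 and 743 CPM in WT and at 986, 743 and 749 CPM under the HIF2α AKO label. In the cold every library labelled HIF2α AKO lay above every WT library, at the closest by 743.2 against 742.8 CPM. The log2 difference between the genotypes in the cold was 0.40 ± 0.20 (SE). A count over the whole gene in whole tissue thus did not show the deletion, and the genotype is given below as labelled. The study itself reported lower mRNA of the deleted HIFα genes in adipose tissue of its knockout mice. The adipocyte genes Adipoq and Plin1 were read in every library, at no less than 899 and 544 CPM.

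The libraries held 22368316 to 35204631 counts on genes, of which the 35 genes took 0.230% to 0.676%. Some libraries stood apart from the rest of their group. TN WT 3 held epithelial transcripts summing to 200.05 CPM, against at most 10.3 CPM in the other libraries, and had the lowest value of TN WT for 30 of the 35 genes. Cold HIF2α AKO 1 and TN HIF2α AKO 2 held skeletal muscle transcripts summing to 1763 and 2060 CPM, against at most 165 CPM elsewhere. Cold WT 3 had the lowest value of cold WT for 33 of the 35 genes and the lowest of all 12 libraries for 22 of them. The 6 white adipocyte genes summed to 12511 CPM in cold WT 3, the highest of the 12 libraries, and to 2604 CPM in TN WT 2, the lowest.

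Promoter windows of a few members are shown so that the genes whose levels carry the comparisons below can be seen with their sequence. Mrc1, Folr2 and C1qc passed the test in the cold among libraries labelled HIF2α AKO, and Trem2 and Spp1 are lipid-associated genes whose levels spread widely in cold WT. Each window is on the gene's strand, begins 250 bases before the RefSeq start and stops before the gene's annotated span in GENCODE. The coordinates are on GRCm38.p6: Mrc1 chr2:14229164-14229391 (plus strand), Folr2 chr7:101857195-101857440 (minus strand), C1qc chr4:136893066-136893164 (minus strand), Trem2 chr17:48346151-48346400 (plus strand) and Spp1 chr5:104434861-104435110 (plus strand). Capitals mark GAGGAAG, a core motif bound by PU.1, or its reverse complement CTTCCTC.
Mrc1: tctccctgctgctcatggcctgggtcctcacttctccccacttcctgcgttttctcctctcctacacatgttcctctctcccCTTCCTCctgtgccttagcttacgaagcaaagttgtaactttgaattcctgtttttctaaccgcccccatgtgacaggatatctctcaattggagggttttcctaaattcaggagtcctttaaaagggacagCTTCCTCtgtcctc
Folr2: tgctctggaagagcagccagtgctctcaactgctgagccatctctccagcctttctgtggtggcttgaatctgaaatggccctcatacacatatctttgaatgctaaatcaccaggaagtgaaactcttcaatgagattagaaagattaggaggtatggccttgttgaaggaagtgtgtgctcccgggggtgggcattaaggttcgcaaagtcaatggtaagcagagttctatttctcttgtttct
C1qc: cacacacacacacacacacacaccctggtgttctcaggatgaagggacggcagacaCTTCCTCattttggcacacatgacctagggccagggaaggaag
Trem2: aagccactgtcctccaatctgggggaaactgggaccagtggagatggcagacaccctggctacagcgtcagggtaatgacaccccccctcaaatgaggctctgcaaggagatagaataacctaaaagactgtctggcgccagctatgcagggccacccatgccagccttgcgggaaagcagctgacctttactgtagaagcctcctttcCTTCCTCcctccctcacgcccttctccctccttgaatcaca
Spp1: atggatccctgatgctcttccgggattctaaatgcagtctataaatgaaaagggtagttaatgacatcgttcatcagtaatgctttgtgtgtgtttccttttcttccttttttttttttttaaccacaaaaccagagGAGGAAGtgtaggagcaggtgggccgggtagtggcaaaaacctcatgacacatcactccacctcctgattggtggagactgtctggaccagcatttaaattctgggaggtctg

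A RefSeq promoter of 250 bases before to 50 bases after the start was at hand for 29 of the 35 genes. GAGGAAG was found on either strand in 11 of these 29 promoters (37.9%) and in 3644 of 27025 promoters of all genes (13.5%). In Mrc1 the motif began at positions -168 and -36 from the start, in C1qc at -194, in Trem2 at -41 and in Spp1 at -113, whereas the Folr2 window held none. ACGTG is a form of the core of the hypoxia response element, to which HIF2α binds. It was found in 1 of the 29 promoters, that of Cd163, and in 5305 of the 27025 (19.6%). Other forms of either motif were not searched, so a window without GAGGAAG can still hold another form bound by PU.1. The 2 motifs share no overlap, and such matches describe letters in a window and not occupied sites.

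Levels were compared between genes per kilobase of exon. Lyz2, the lysozyme of macrophages and granulocytes, was the highest member at 783 CPM per kb over the 12 libraries, followed by Retnla at 283, the cysteine protease gene Ctss at 194 and C1qb at 189. Trem2 was at 0.982, Msr1 at 3.10, Ms4a7 at 3.30 and Spp1 at 3.46 CPM per kb of exon. The order at this end depends on the length used, since the annotated exons of Trem2 cover 4946 bases and its longest transcript 1088, and per kb of the longest transcript Trem2 was at 4.46, above Spp1 at 3.79 and Cx3cr1 at 3.69. Trem2 and Spp1 were thus among the faintest members, and at their lowest Trem2 rested on 55 counts and Spp1 on 48. The resident marker Mrc1 and the pan-macrophage gene Csf1r were well covered, with Mrc1 at 3031 or more counts in every library and Csf1r at 5100 or more. Of the 50-base stretches of Csf1r, 17.7% also occur in Hmgxb3, a counted gene that overlaps it on the opposite strand. The part of shared reads was not tested.

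**Figure D1:**
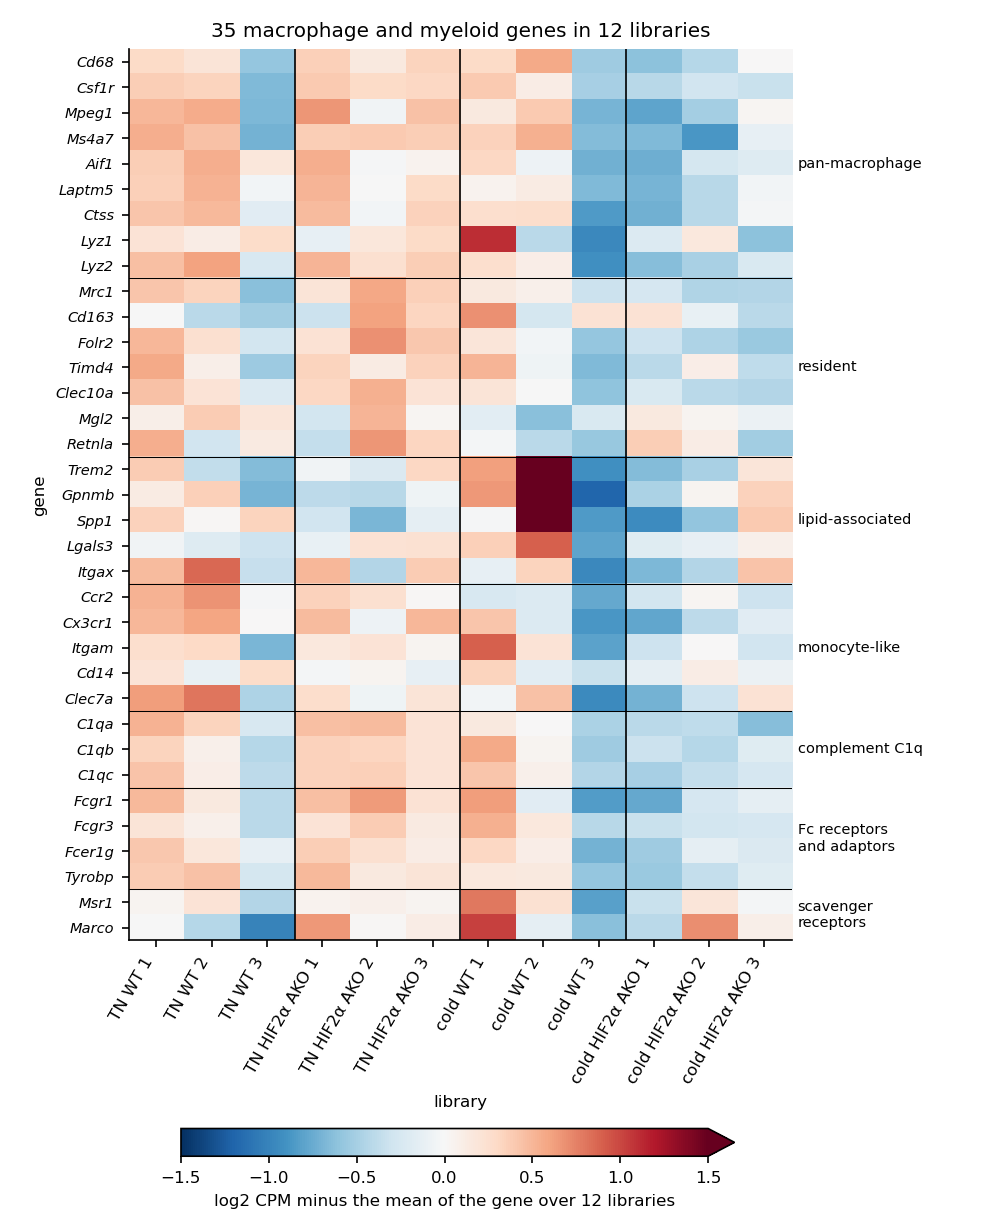
Log2 CPM of the 35 genes (rows, grouped by role) in the 12 libraries (columns), each minus the mean of the gene over all libraries; red is above and blue below that mean, and values over 1.5 share the darkest red. Cold WT 3 is blue for most genes, being the lowest of the 12 libraries for 22 of 35, and Trem2, Gpnmb and Spp1 are darkest in cold WT 2.

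The comparison of cold WT with TN WT asks how the myeloid genes stood after cold exposure in control mice. Ccr2, the receptor through which monocytes follow Ccl2 into tissue (chr9:124101950-124113557), was the member that fell. It was read at 69.1, 76.5 and 47.4 CPM in TN WT and at 40.7, 41.8 and 28.2 CPM in cold WT. All 3 cold libraries lay below all 3 TN libraries. Its log2 fold change was -0.80 ± 0.19 (SE), with adjusted p = 0.0162 by the quasi-likelihood test of edgeR, adjusted over all tested genes after Benjamini and Hochberg, and 2.27% of its 50-base stretches also occur in other counted genes. The call was lost at 0.0613 when only these 6 libraries were fitted and at 0.0551, 0.0672 and 0.0635 without TN WT 1, TN WT 2 and cold WT 3.

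Ccr2 was 1 of 35 members called lower in cold WT, against 5.68% of all tested genes, and no member was called higher, against 15.6%. Fold changes were below 0 for 24 members, and the median over the 35 was -0.13, with -0.03 over all tested genes. Groups did not overlap, on the lower side, for 2 members, Ccr2 and Mgl2, against 19.3% of all genes. The share of members called lower was thus near that of all genes, and the share that did not overlap was below it.

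Mgl2, a galactose-binding lectin of resident macrophages and dendritic cells, was read at 48.0, 58.6 and 51.2 CPM in TN WT and at 40.3, 29.2 and 38.4 CPM in cold WT. Its log2 fold change of -0.55 ± 0.19 (SE) had an adjusted p of 0.0559 by edgeR, and it passed the limit with DESeq2 (0.0284) and limma voom (0.0313). Mgl2 shares 16.5% of its 50-base stretches with other genes, chiefly Clec10a, so reads of the pair can be split between them. Among the other resident markers, the log2 fold change was -0.13 ± 0.24 for Mrc1, -0.30 ± 0.22 for the folate receptor Folr2, and 0.55 ± 0.28 for Cd163, the haemoglobin scavenger receptor, and none passed the test.

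The lipid-associated genes Trem2, Spp1 and Gpnmb had the highest fold changes of the members and the widest spread in cold WT. Trem2, the lipid receptor that gives these cells their programme, was read at 5.42, 3.22 and 2.66 CPM in TN WT and at 6.40, 15.2 and 2.21 CPM in cold WT. Gpnmb, a lysosome-linked glycoprotein, was read at 64.8, 76.0 and 36.6 CPM in TN WT and at 93.3, 195 and 25.9 CPM in cold WT. Spp1, which encodes osteopontin, was read at 5.70, 4.56 and 5.66 CPM in TN WT and at 4.43, 23.9 and 2.49 CPM in cold WT. For all 3 genes cold WT 2 was the highest of the 12 libraries, and cold WT 3 was below every TN WT library.

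The log2 fold changes were 1.07 ± 0.54 for Trem2, 0.82 ± 0.54 for Gpnmb and 0.95 ± 0.66 for Spp1 (SE), with adjusted p = 0.167, 0.269 and 0.299 by edgeR. Without cold WT 2 they were 0.14, -0.03 and -0.65. Without cold WT 3 they were 1.51, 1.29 and 1.42, and Trem2 then passed the test at adjusted p = 0.0449. Lgals3, a lectin recruited to damaged lysosomes, was read at 118, 171 and 53.5 CPM in cold WT against 89.0, 80.7 and 74.3 CPM in TN WT, a log2 fold change of 0.49 ± 0.31 that became 0.83 and passed at adjusted p = 0.0143 by edgeR without cold WT 3. Itgax, the integrin CD11c, did not share the pattern, with 31.2, 42.8 and 17.5 CPM in cold WT against 47.3, 61.7 and 26.8 CPM in TN WT. Gpnmb and Spp1 were named after their values were seen.

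**Figure D2:**
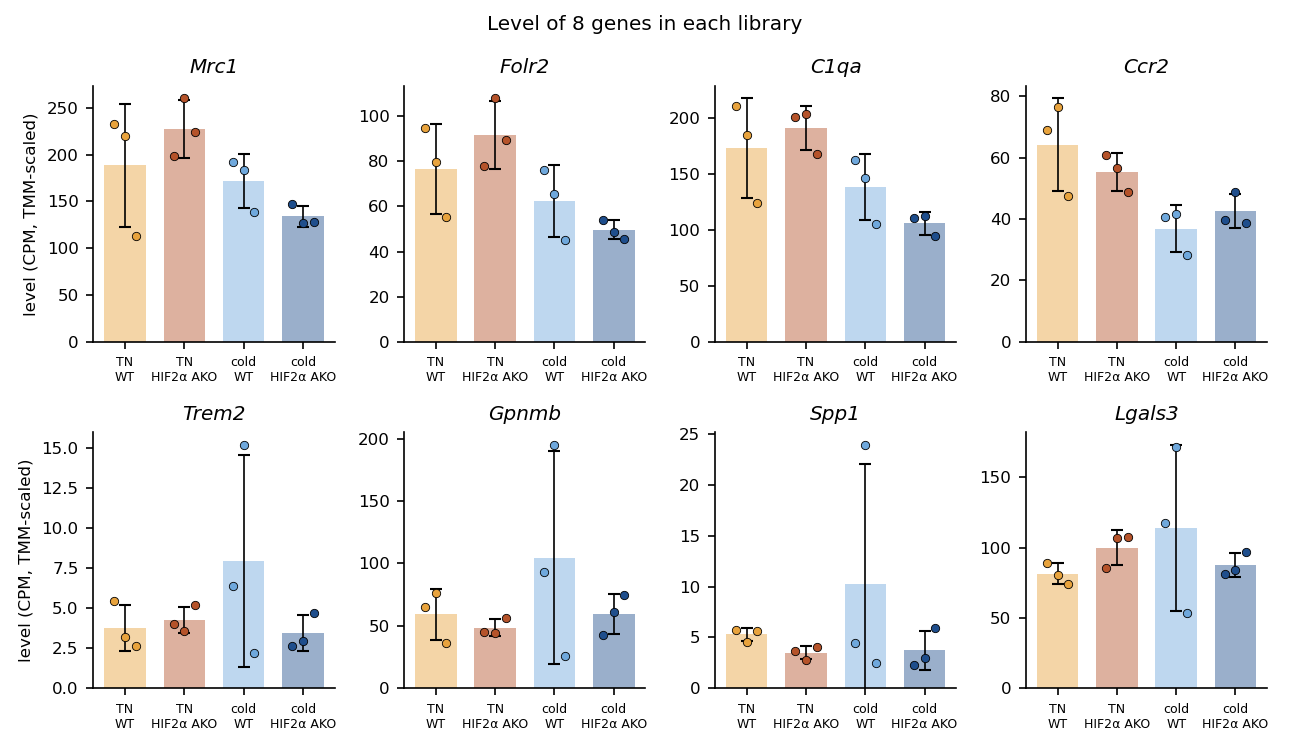
CPM of Mrc1, Folr2, C1qa, Ccr2, Trem2, Gpnmb, Spp1 and Lgals3 in each library (points, replicates 1 to 3 from left to right), with the group mean (bar) and SD (error bar, n = 3, drawn no lower than 0). In cold HIF2α AKO, Mrc1, Folr2 and C1qa lie below all TN HIF2α AKO values, and Trem2, Gpnmb and Spp1 reach 15.2, 195 and 23.9 CPM in cold WT 2.

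The remaining members in WT were spread on either side of 0. Of the pan-macrophage genes, Cd68, a lysosomal glycoprotein, was read at 101, 94.3 and 55.3 CPM in TN WT and at 101, 123 and 57.0 CPM in cold WT, which differed by 0.17 ± 0.28 on the log2 scale (SE). Csf1r was read at 428, 417 and 208 CPM in TN WT and at 434, 355 and 234 CPM in cold WT, a difference of -0.04 ± 0.26. Lyz2 was read at 1342, 1491 and 831 CPM in TN WT and at 1164, 1047 and 519 CPM in cold WT, a difference of -0.43 ± 0.29. In each of these genes replicate 3 of either group was the lowest, and the groups overlapped. The other pan-macrophage genes, the pore-forming Mpeg1, the tetraspan Ms4a7, the actin-binding Aif1, the lysosomal Laptm5, Ctss and the lysozyme Lyz1, lay between -0.47 and -0.01. The other monocyte-like genes were the fractalkine receptor Cx3cr1 (-0.52), the beta-glucan receptor Clec7a (-0.50), the endotoxin co-receptor Cd14 (-0.16) and the integrin Itgam (0.24). C1q genes lay between -0.33 and 0.07, Fc receptors and adaptors between -0.27 and 0.16, and the scavenger receptors Msr1 and Marco at 0.25 and 0.69.

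The comparison of cold with TN among libraries labelled HIF2α AKO asks the same of mice labelled as lacking HIF2α in adipocytes. Of the 35 members, 5 fell (14.3%), against 11.5% of all tested genes, and none rose, against 15.6%. The share that fell was thus near that of all genes, and the share that rose was below it. The resident markers Mrc1 (chr2:14229392-14332057), Folr2 (chr7:101839988-101857194) and Clec10a (chr11:70156197-70170834), the last a galactose-type lectin, fell together with C1qa (chr4:136895917-136898803) and C1qc (chr4:136889804-136893065), which encode chains of the first component of complement and are made in tissue mainly by macrophages. In RNA of whole tissue, fewer cells of a type and less RNA per cell cannot be told apart.

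Mrc1 was read at 199, 260.3 and 224 CPM in TN and at 147, 127 and 128 CPM in the cold under the HIF2α AKO label. Its log2 fold change was -0.76 ± 0.24 (SE), with adjusted p = 0.0367 by edgeR. Folr2 was read at 78.1, 108 and 89.3 CPM in TN and at 54.1, 48.9 and 45.8 CPM in the cold, with -0.89 ± 0.22 and adjusted p = 0.0158. Clec10a was read at 111, 130.4 and 104 CPM in TN and at 77.2, 68.1 and 66.5 CPM in the cold, with -0.71 ± 0.21 and adjusted p = 0.0289. In these 3 lectin and folate receptor genes no cold library reached the lowest TN library, and TN HIF2α AKO 2, a library with muscle transcripts, was the highest.

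C1qa was read at 201, 204 and 168 CPM in TN and at 110.4, 113 and 94.5 CPM in the cold, with a log2 fold change of -0.85 ± 0.20 (SE) and adjusted p = 0.0131 by edgeR. C1qc was read at 225, 228 and 205 CPM in TN and at 126, 139 and 149 CPM in the cold, with -0.67 ± 0.22 and adjusted p = 0.0478. C1qb, the third chain, was read at 254, 251 and 229.9 CPM in TN and at 160.0, 148 and 176 CPM in the cold, and its -0.60 ± 0.25 did not pass at adjusted p = 0.0896. For each chain the groups did not overlap and the spread within a group was small, with SDs of 9.92 to 19.6 CPM.

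The share called lower, near that of all genes, is no result about the members. Fold changes were below 0 for 32 of 35 members (91.4%), against 54.2% of all genes, and their median was -0.53 with -0.05 over all genes. Cold libraries lay wholly below TN libraries for 19 of 35 members (54.3%), against 25.6% of all genes. C1qc also lost the call with the size factors of DESeq2 in edgeR and without the filter on low counts. Leaving out any library kept the median between -0.66 and -0.48 and kept Folr2 and C1qa called, while Mrc1 and C1qc each lost the call in all 6 such fits and Clec10a in 5 of them. Without the 3 libraries with muscle or epithelial transcripts 3 genes were called, Mrc1, Folr2 and C1qa. The share of all genes called in that fit is not given here.

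The number of members called moved with the test. DESeq2 on all 12 libraries called 10 members lower (28.6%), against 11.8% of the genes it tested. Limma voom with quality weights called 16 (45.7%), against 19.1%, edgeR on these 6 libraries alone 15 (42.9%), against 11.7%, and DESeq2 on them alone 20 (57.1%), against 12.1%. Each of these sets held the 5 genes above. All calls in these fits were toward lower levels in the cold, and the median stayed between -0.51 and -0.49. Without TMM factors the median of all genes itself moved to -0.32 in this comparison and to -0.33 in WT, and the members' medians to -0.80 and -0.43.

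**Figure D3:**
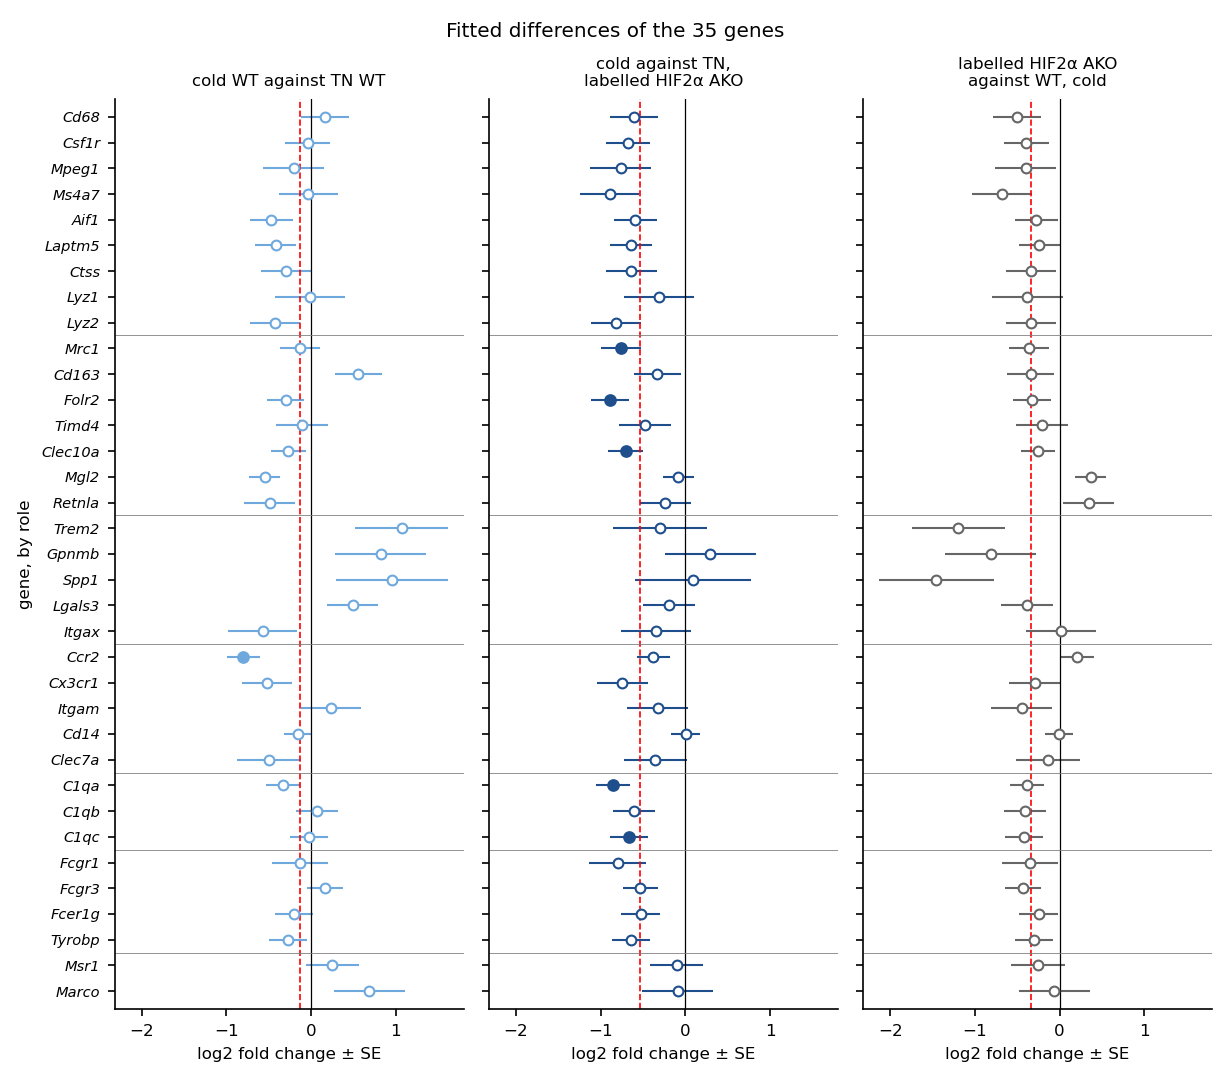
Log2 fold change (circle) ± SE (line) of each gene in 3 comparisons, by role. Filled circles passed adjusted p under 0.05, and the red dashed line is the median of the 35 genes, at -0.13, -0.53 and -0.34 from left to right.

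Among the other members in libraries labelled HIF2α AKO, Csf1r was read at 434, 403 and 409 CPM in TN and at 247, 271 and 262 CPM in the cold, with -0.68 ± 0.26 and adjusted p = 0.0765 by edgeR. Lyz2 was read at 1398, 1156 and 1262 CPM in TN and at 627, 699 and 833 CPM in the cold, with -0.82 ± 0.29 and adjusted p = 0.0578. Cd68 was read at 106, 91.7 and 105 CPM in TN and at 54.1, 61.6 and 83.0 CPM in the cold, with -0.60 ± 0.28 and adjusted p = 0.128. Groups did not overlap for any of these 3 genes, and none passed by edgeR on all 12 libraries, while all 3 passed by voom and by either tool on the compared groups alone, and Csf1r and Lyz2 by DESeq2 on all 12. All 9 pan-macrophage genes had fold changes below 0, from -0.89 for Ms4a7 to -0.31 for Lyz1.

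The adaptors Tyrobp and Fcer1g, which carry the signal of Trem2 and of Fc receptors, had log2 fold changes of -0.64 and -0.53, and the Fc receptors Fcgr1 and Fcgr3 of -0.80 and -0.53. Their cold libraries lay below their TN libraries for all 4 genes, against 25.6% of all genes, and none passed by edgeR on all 12 libraries. All 4 passed by edgeR and by DESeq2 on the compared groups alone, Fcgr3 and Tyrobp by voom, and Tyrobp by DESeq2 on all 12 libraries. Resident Timd4, a receptor for phosphatidylserine on long-lived macrophages, was at -0.48, Cd163 at -0.33, Retnla at -0.24 and Mgl2 at -0.09. Lipid-associated genes lay on either side of 0, with Itgax at -0.35, Trem2 at -0.30, Lgals3 at -0.19, Spp1 at 0.09 and Gpnmb at 0.29. Trem2 was read at 4.01, 3.58 and 5.20 CPM in TN and at 2.66, 2.98 and 4.73 CPM in the cold. Among monocyte-like genes Cx3cr1 was at -0.75 ± 0.30 and Ccr2 at -0.38 ± 0.19, with Ccr2 at 60.9, 56.7 and 48.7 CPM in TN and at 39.9, 49.0 and 38.9 CPM in the cold, while Clec7a, Itgam and Cd14 lay between -0.35 and 0.00. The scavenger receptors Msr1 and Marco were at -0.10 and -0.09.

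Genes of other cell types were read in the same comparisons. The 6 white adipocyte genes summed to 3794 to 7021 CPM in TN and to 7008 to 8426 CPM in cold HIF2α AKO, and in WT to 2604 to 5787 and 6122 to 12511 CPM, with 0 of 6 called higher in the former and 2 of 6 in WT. All 6 thermogenic adipocyte genes rose in both genotypes, from sums of 17.1 to 68.9 CPM in TN to 3291 to 8414 CPM in the cold. Lymphocyte genes summed to 1130 to 1890 CPM in TN and to 659.8 to 1000.03 CPM in cold HIF2α AKO, and all 9 tested had fold changes below 0 in either genotype, with 1 called lower in WT and 2 in libraries labelled HIF2α AKO. The part of these cells in the lower myeloid levels was not tested.

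The comparison of libraries labelled HIF2α AKO with WT in the cold asks whether the genotypes differed under the stimulus. No member passed the test by edgeR, against 0.00653% of all tested genes, and none had an unadjusted p under 0.05, against 2.95%. By DESeq2 and by limma voom on all 12 libraries the adjusted count was also 0, with 2 members at an unadjusted p under 0.05 by DESeq2, against 2.81% of genes, and 18 (51.4%) by voom, against 7.69%. Fold changes were below 0 for 31 of 35 members (88.6%), against 56.2% of all genes, with a median of -0.34 and -0.02 over all genes. Groups did not overlap on the lower side for 0 members, against 3.73% of all genes, and cold WT 3 lay below the highest library labelled HIF2α AKO for all 35. The median was -0.12 without cold WT 1, -0.21 without cold WT 2 and -0.56 without cold WT 3.

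The study called genes in this comparison by DESeq2 at p under 0.15 with an absolute log2 fold change above 0.2. Here and below, these thresholds of the study were set on the unadjusted p and fold change of edgeR on all 12 libraries. The calls are thus not those of the study. By them 8 members were lower (22.9%), against 4.24% of all genes, and 1 was higher (2.86%), against 4.74%. The lower genes were Spp1 (-1.45), Trem2 (-1.19), Ms4a7 (-0.68), Cd68 (-0.50), Fcgr3 (-0.43), C1qc (-0.42), C1qb (-0.40) and C1qa (-0.38), and the higher gene was Mgl2 (0.37). Mgl2 was read at 49.97, 46.4 and 42.6 CPM in cold HIF2α AKO and at 40.3, 29.2 and 38.4 CPM in cold WT. It was the only member whose libraries did not overlap in this comparison (2.86%). Of all genes, 3.8% did not overlap on the higher side, so that the count was near the background. Trem2 and Spp1 had SEs of 0.55 and 0.68, and without cold WT 2 their differences were -0.27 and 0.14.

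None of the members chosen as general markers passed the test between genotypes in the cold. Differences were -0.50 ± 0.28 for Cd68, -0.39 ± 0.26 for Csf1r, -0.36 ± 0.24 for Mrc1, -0.34 ± 0.29 for Lyz2, -0.38 ± 0.20 for C1qa and 0.21 ± 0.19 for Ccr2 (log2, SE). A p that misses the limit does not show equal levels. Among resident markers, Retnla, a resistin-like protein of alternatively activated macrophages, was at 0.35 ± 0.30, on the same side of 0 as Mgl2, while Timd4, Clec10a, Folr2, Cd163 and Mrc1 lay between -0.36 and -0.21.

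**Figure D4:**
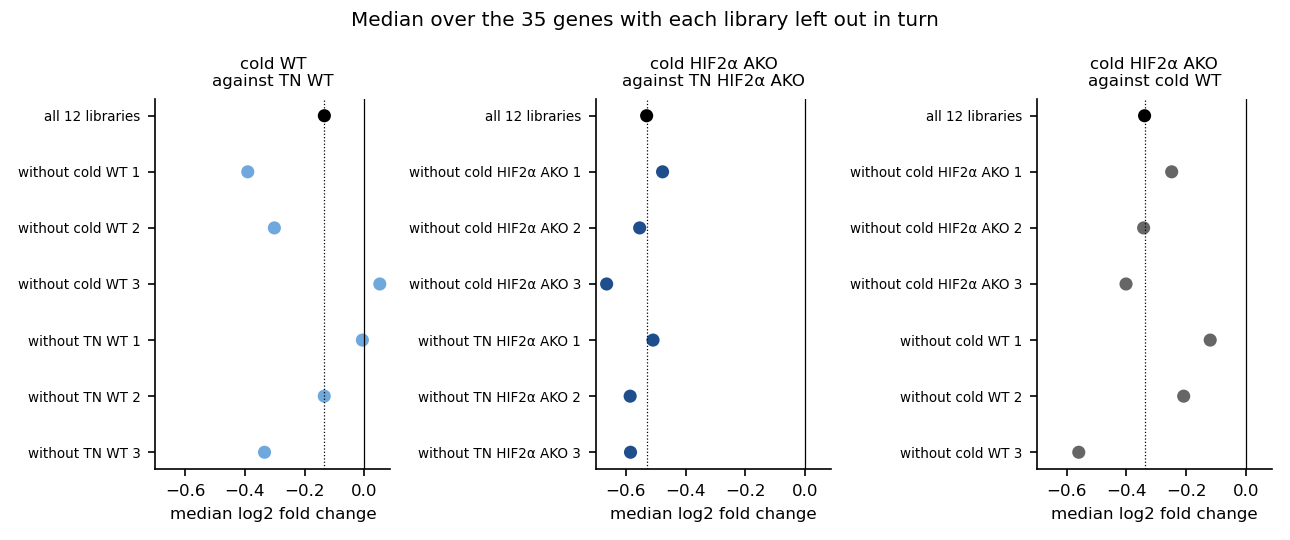
Median log2 fold change over the 35 genes with all 12 libraries (black) and with each library of the compared groups left out (coloured), in 3 comparisons. The cold WT median runs from -0.39 to 0.05, the cold HIF2α AKO median from -0.66 to -0.48 and the genotype median in the cold from -0.56 to -0.12.

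At thermoneutrality no member passed the edgeR test between libraries labelled HIF2α AKO and WT, against 0.00653% of all tested genes. None had an unadjusted p under 0.05, against 2.91%. DESeq2 and limma voom on all 12 libraries also called 0, with 0 members at an unadjusted p under 0.05 by DESeq2, against 2.89% of genes, and 1 by voom, against 9.62%. The median over members was 0.12, with 0.01 over all genes, and it was -0.06 by voom, without TN WT 3 at -0.07 and without the 3 libraries with muscle or epithelial transcripts at -0.06, so its direction was not settled. At the thresholds of the study 2 members were higher (5.71%), against 3.97% of all genes, and 0 were lower, against 4.66%, so that the count was near the background. They were Marco, a scavenger receptor with collagenous structure, at 0.71 ± 0.42, with 270.0, 174 and 186 CPM against 171, 127 and 85.8 CPM, and Cd163 at 0.54 ± 0.28, with 52.4, 98.8 and 81.7 CPM against 64.8, 49.5 and 45.6 CPM. Spp1 was at -0.60 ± 0.67.

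Whether cold acted differently in the 2 genotypes was tested by the interaction of genotype and temperature. No member passed, against 0% of all tested genes, so that a gene called in libraries labelled HIF2α AKO and not in WT is not shown to differ between them. Fcgr3 (-0.70 ± 0.30, unadjusted p = 0.0388) and Cd163 (-0.88 ± 0.39, unadjusted p = 0.0449) were the 2 members with an unadjusted p under 0.05, against 2.14% of all genes, by edgeR's quasi-likelihood test. Of the 50-base stretches of Fcgr3, 12.8% also occur in Fcgr2b. DESeq2 and voom called 0 members, with 2 at an unadjusted p under 0.05 by DESeq2, against 2.11% of genes, and 7 by voom, against 5.31%. Cd163 was read at 105, 54.3 and 75.6 CPM in cold WT and at 75.7, 60.2 and 49.4 CPM in cold libraries labelled HIF2α AKO. For Mrc1, Folr2, Clec10a, C1qa and C1qc the interaction was -0.63, -0.59, -0.44, -0.52 and -0.64, and the median over members was -0.52, with -0.03 over all genes and -0.22 without the 3 libraries with muscle or epithelial transcripts.

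A score was taken per library as the mean over a role's genes of log2 CPM minus the gene's mean over the 12 libraries. The resident score was 0.06 ± 0.31 in TN WT, 0.27 ± 0.26 in TN HIF2α AKO, -0.12 ± 0.31 in cold WT and -0.21 ± 0.17 in cold HIF2α AKO (SD, n = 3 each). The monocyte-like score was 0.23 ± 0.35, 0.15 ± 0.09, -0.15 ± 0.53 and -0.23 ± 0.18 in the same order. The lipid-associated score was 0.02 ± 0.31, -0.08 ± 0.23, 0.26 ± 1.18 and -0.21 ± 0.44. In cold WT the lipid-associated score was 0.29, 1.43 and -0.93 in replicates 1 to 3, a spread wider than the difference between any of the groups.

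The difference between the lipid-associated and the resident score set libraries apart more than groups. It was 1.63 in cold WT 2, 0.68 in cold HIF2α AKO 3 and 0.08 or lower in the other 10 libraries, the lowest being -0.83 in TN HIF2α AKO 2. In cold WT 2 the 5 lipid-associated genes summed to 448 CPM, against 102 to 253 CPM in the other 11 libraries, while its resident genes summed to 641 CPM, inside the 522 to 1028 CPM of the others. Cold WT 1 instead was the highest of the 12 libraries for Lyz1 at 119 CPM, Marco at 351 CPM, Itgam at 121 CPM, Msr1 at 32.98 CPM and C1qb at 297 CPM. Lyz1, the lysozyme of Paneth cells and some myeloid cells, shares 16.1% of its 50-base stretches with Lyz2, which was at 1164 CPM in cold WT 1, and the part of shared reads was not tested.

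The C1q score was the tightest of all roles in cold HIF2α AKO, at -0.41, -0.39 and -0.36, and it was 0.38, 0.39 and 0.20 in TN HIF2α AKO. In WT the C1q score was 0.43, 0.17 and -0.36 in TN and 0.38, 0.04 and -0.48 in the cold, so that the groups of WT overlapped almost wholly. The Fc receptor and adaptor score was -0.55, -0.25 and -0.20 in cold and 0.38, 0.35 and 0.16 in TN HIF2α AKO. Keeping these 2 groups apart was not particular to C1q and Fc receptors. The pan-macrophage score was at least 0.12 in TN and at most -0.17 in cold HIF2α AKO. These limits were 0.01 and -0.07 for the resident score, and 0.07 and -0.11 for the monocyte-like score. The lipid-associated and scavenger receptor scores overlapped between the 2 groups. The scavenger receptor score, from 2 genes, ran from -0.72 to 0.91 within cold WT alone.

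**Figure D5:**
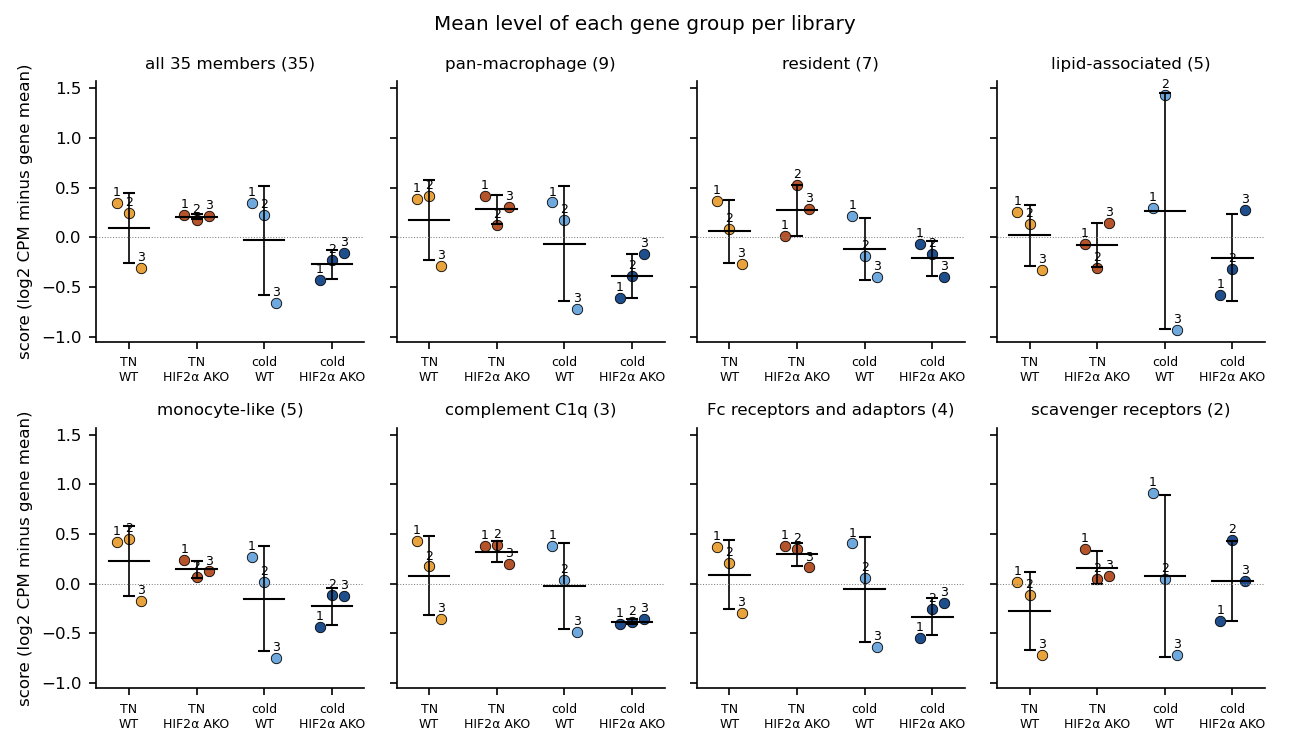
Score of each role per library (points numbered by replicate), with the group mean (line) and SD (error bar, n = 3). The score is the mean log2 CPM of the role's genes minus each gene's mean over the 12 libraries, with the number of genes in brackets, and the lipid-associated score of cold WT runs from -0.93 to 1.43.

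Lists of related genes were read against the share of all tested genes called lower, 5.68% in WT and 11.5% in libraries labelled HIF2α AKO. In a list of 18 other macrophage genes, 0 were called in cold WT, where 9 fold changes lay on either side of 0. In libraries labelled HIF2α AKO all 18 lay below 0 with a median of -0.56, and 3 fell, a share near that of all genes, among them Ptpn6 (-0.78 ± 0.25), a phosphatase of blood cells, and Stab1 (-0.61 ± 0.15), a scavenger receptor of resident macrophages and endothelium. Of 8 genes of circulating monocytes, 4 fell in libraries labelled HIF2α AKO, among them Ly6c2 (-1.33 ± 0.35) and Plac8 (-1.08 ± 0.28), and 0 in WT. Of 12 genes of the M-CSF axis and of myeloid transcription factors, Irf8 (-0.81 ± 0.27) and Maf (-0.76 ± 0.14) fell in libraries labelled HIF2α AKO, and Cebpb, a factor of myeloid cells and of adipocytes, rose by 2.13 ± 0.31 there and by 1.81 ± 0.30 in WT. Nr1h3, the sterol receptor LXRα that adipocytes also express, rose by 1.12 ± 0.18 in WT and by 0.73 ± 0.18 in libraries labelled HIF2α AKO.

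Of 16 genes of lysosomes and lipid handling, 8 rose in cold WT and 6 in cold libraries labelled HIF2α AKO, against 15.6% of all genes in either, and none fell. Fold changes were below 0 for 2 and 4 of the 16. Plin2, the coat protein of lipid droplets, rose by 1.97 ± 0.41 in WT and 2.06 ± 0.42 in libraries labelled HIF2α AKO, Fabp5 by 1.89 ± 0.40 and 1.78 ± 0.40, and Lpl by 1.37 ± 0.36 and 1.14 ± 0.36 (log2, SE). These 3 genes act on lipid and are also expressed by adipocytes, and the part of adipocytes in their rise was not tested.

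Of 11 tested genes of inflammatory and alternative activation, 0 were called in WT, and in libraries labelled HIF2α AKO Nos2 rose (0.84 ± 0.19) and Il10ra fell (-0.79 ± 0.27). Of 7 mast cell genes, 4 fell in libraries labelled HIF2α AKO, among them Fcer1a (-1.46 ± 0.48), Cma1 (-0.87 ± 0.20) and Tpsb2 (-0.76 ± 0.20), and 0 in WT. Of 7 dendritic cell genes Cd209a fell in WT (-1.01 ± 0.17). Of 9 neutrophil genes Ltf fell in WT (-2.46 ± 0.79), with its highest reading of 103 CPM in TN WT 3, the library with epithelial transcripts, and Cxcr2 fell in libraries labelled HIF2α AKO (-1.14 ± 0.37). Of 9 lymphocyte genes Ms4a1 fell in both genotypes (-0.95 ± 0.30 in WT and -0.99 ± 0.30 in libraries labelled HIF2α AKO). Of 8 cell cycle genes 0 were called in either genotype, with medians of -0.82 and -0.96. Of 6 endothelial genes 1 rose in libraries labelled HIF2α AKO, of 6 epithelial genes 1 fell in WT, and of 12 skeletal muscle genes 0 were called in either genotype. No gene of these lists was called in a comparison of genotypes or in the interaction.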

How the data were processed

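mRNA libraries of total RNA from iWAT were sequenced, 12 in all. Per the submitters' processing notes and the study's methods, reads were trimmed with Trim Galore 0.4.4, aligned to mm10 with STAR 2.6.1d and counted per gene with HTSeq 0.13.5. The deposited values were raw read counts per gene, not normalized by the authors, and the annotation and strand setting are not given in the sources used here. Rows that name no gene held 21.9% to 27.0% of each library and were left out. The 12 tables of single libraries held the same counts as the joint table.

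Counts were analysed with edgeR 4.0.16 in R 4.3.3. Genes were kept by filterByExpr (minimum count 10, minimum total 15), libraries were scaled by TMM, and 1 factor of 4 groups was fitted with the quasi-likelihood test. Comparisons were adjusted by Benjamini-Hochberg over 15306 genes with a limit of 0.05. Scores used log2 CPM with a prior count of 2. Alternatives used DESeq2 1.42.0, limma 3.58.1, other scalings, other filters, a replicate block and each library left out. The fit was also run on simulated data, with an outcome that is not given here, and no result rests on it. DESeq2 was run without the filter on low counts, so its shares of all genes cover more genes.

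Members were given in every library with full statistics where adjusted p was under 0.05 in any of 5 contrasts, or where groups did not overlap with an unadjusted p under 0.05 between genotypes; Cd68, Csf1r, Mrc1, Trem2, Ccr2, Lyz2 and C1qa always were. Others shown per library were chosen after their values were seen. From each related list up to 3 called genes with the largest fold changes and a mean count of at least 50 were named. Some genes of these lists are not reported here. The members, the roles and the other lists were chosen with earlier results of these data known. Sequences came from RefSeq on GRCm38.p6, with gene spans from GENCODE.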

Additional observations from a re-analysis of the deposited data

How the results depend on the processing

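In cold against TN WT, 1 member was called, and 2 were called by DESeq2 on all 12 libraries, by limma voom, by DESeq2 on the compared groups alone and without the 3 libraries with muscle or epithelial transcripts, 3 without TMM, 0 by edgeR on the compared groups alone and 11 at the thresholds of the study (4 higher, against 26.8% of all genes, and 7 lower, against 25.7%). Without TMM 29.1% of all genes were called lower. Leaving out each library gave 0 to 2. In cold against TN HIF2α AKO, 5 were called, with 10, 16, 20 and 3 under the first 4 of these settings, 16 without TMM, 15 by edgeR on the compared groups alone, 21 at the thresholds of the study (all lower, against 28.9% of all genes) and 2 to 3 with each library left out. Without TMM 31.7% of all genes were called lower. By edgeR on all 12 libraries 5.68% of all genes were called lower in WT and 11.5% in HIF2α AKO, and 15.6% higher in either. Shares for the other fits in WT, and for fits without some libraries in either genotype, are not given here. Those counts are no result about the members. At the thresholds of the study 9 members passed between genotypes in the cold, 2 at thermoneutrality and 13 in the interaction (12 lower, against 4.94% of all genes, and 1 higher, against 3.87%). The setting without TMM and that without the 3 libraries were chosen after seeing the data. Medians over the members ranged with each library left out from -0.39 to 0.05 in WT, -0.66 to -0.48 in HIF2α AKO, -0.56 to -0.12 between genotypes in the cold, -0.07 to 0.30 at thermoneutrality and -0.69 to -0.21 in the interaction. The resident score difference in WT was -0.48 without TMM and -0.35 to -0.03 with each library left out, the lipid-associated one -0.37 to 0.85 and the monocyte-like one -0.59 to -0.09. Without cold WT 2, Gpnmb and Spp1 turned to -0.032 and -0.65 in WT and to 0.040 and 0.14 between genotypes in the cold. With each library left out they ranged from -0.032 to 1.29 and from -0.65 to 1.42 in WT, and from -1.27 to 0.040 and from -1.95 to 0.14 between genotypes in the cold. Of 270 values of named genes under all settings, 235 kept direction and side of the limit, 25 lost and 6 gained a call and 4 turned direction. The cause was not tested.

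Libraries share replicate numbers, and correlations showed no pairing by number that held across all groups. Of 18 same-number pairs, 5 had correlated deviations above 0.1 (range -0.43 to 0.39). In each of the other groups at once, 0 libraries correlated best with their own number. Single same-number pairs did stand out, as cold WT 2 with TN WT 2 at 0.39. With 3 libraries per group this check cannot exclude that a number marks a shared batch. With the replicate block 1 member was called in WT and 6 in HIF2α AKO, Ccr2 being added, with medians of -0.16 and -0.52. The share of all genes called with the block is not given here, so these counts are no result about the members. Trem2 and Spp1 rest on few counts.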
